A study of Homo sapiens with 60 samples.

Results

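ATF4, the transcription factor at the end of the integrated stress response, was followed together with 4 transcription factors of its network (ATF5, DDIT3, CEBPB and CEBPG), 2 genes that feed back on the pathway (TRIB3 and PPP1R15A) and 3 stress-induced effectors (CHAC1, DDIT4 and NUPR1). These 10 genes were taken by symbol from the 60675 Ensembl gene IDs of the count table, and all 10 passed the filter on low counts in every fit. RNA was sequenced from A549, a human lung adenocarcinoma line in wide use, after 24 h with 1 of 8 herbal extracts at a low, medium or high dose, or with vehicle. The groups were as follows. Scutellaria (Scutellariae Radix, ethanol extract) was given at 7.6, 38 and 190 µg/mL with 3 libraries per dose. Dried ginger (Zingiberis Rhizoma), fresh ginger (Zingiberis Rhizoma Recens) and Pinellia (Pinelliae Tuber), all ethanol extracts, were given at 20, 100 and 500 µg/mL with 3 libraries per dose. The herbal formulas Sayeok-tang (3 libraries per dose) and Bojungikgi-tang (2 per dose), both water extracts, were given at 20, 100 and 500 µg/mL. Coptis (Coptidis Rhizoma) was given at 4.4, 22 and 110 µg/mL and Zizyphus (Zizyphi Fructus) at 20, 100 and 500 µg/mL, both ethanol extracts with 1 library per dose. The vehicle group had 3 libraries of cells that received DMSO. The sample labels give 0.1% DMSO for vehicle, another source differs, and this could not be settled. No DMSO concentration is recorded for the extract libraries. A difference in solvent and an effect of an extract therefore cannot be told apart in comparisons with vehicle.

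The integrated stress response starts when kinases that sense unfolded proteins, amino acid shortage, haem shortage or double-stranded RNA phosphorylate the initiation factor eIF2. Most translation then slows, while ATF4 mRNA, whose upstream open reading frames normally hold back its coding region, is translated more. ATF4 protein dimerises with C/EBP factors and activates genes of amino acid supply, redox balance and cell death. Among its targets are TRIB3 and PPP1R15A, which restrain the same pathway. RNA sequencing reports transcripts only, so eIF2 phosphorylation and ATF4 protein were not measured.

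ATF4 and C/EBP dimers bind a composite element with the letters TGATGCAA, and cAMP-response-element-binding factors bind TGACGTCA. Both were searched on either strand of RefSeq promoter windows (GRCh38.p14, 250 bases before to 50 bases after a start), which covered 9 of the 10 genes in 17 windows and left out NUPR1. TGATGCAA was found in 2 of the 17 windows, from 2 genes, and in 0.866% of all 35116 windows. TGACGTCA was found in 1 of the 17 windows and in 1.85% of all windows. The looser TGATGNAA, which includes every TGATGCAA, was also in 2 of the 17 windows, from 2 genes, and in 3.62% of all windows. The 3 matches are shown because they lie in promoter windows of genes whose levels are described below: an effector, a partner of ATF4 and a feedback gene. Each line is 30 bases on the plus strand, with the match in capitals, and in CHAC1 the match is read on the opposite strand.
CHAC1, chr15:40953251-40953280: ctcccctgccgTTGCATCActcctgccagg
CEBPG, chr19:33374060-33374089: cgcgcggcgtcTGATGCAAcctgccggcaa
PPP1R15A, chr19:48872352-48872381: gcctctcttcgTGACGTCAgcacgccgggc
Relative to the RefSeq start, the match lay at -209 to -202 in CHAC1, at -42 to -35 in CEBPG and at -58 to -51 in PPP1R15A. In the GENCODE 29 annotation the CHAC1 match falls inside an exon of 2 transcripts with an earlier start, the CEBPG match lies within the span of the gene but in no exon, and the PPP1R15A match lies before the gene. A match of letters does not show binding.

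Libraries held 17.51 to 38.54 M (mega) counts each, with 22437 to 24471 genes detected. Levels are given as CPM, counts per mega counts, scaled with TMM over all 60 libraries. Among A549 and lung epithelial markers, KRT8, KRT18, ALDH1A1, AKR1B10 and NQO1 had minima of 1940, 1540, 5520, 2610 and 1430 CPM over the libraries, and the list of 8 summed to between 14000 and 18500 CPM. AKR1C1 was lower, with a minimum of 261 CPM. CDH1 (20.8 to 37.7 CPM) and KRT19 (17.5 to 30.7 CPM) were no higher than the fibroblast marker COL1A1 (17.4 to 36.0 CPM) by much. Markers of immune, endothelial and fibroblast cells summed to between 26.4 and 45.3 CPM, nearly all from COL1A1 and CD68, and CD3E was at 0 in all 60 libraries. The epithelial sum was 17500 to 18300 CPM in vehicle. At the high dose it was 14000 to 14600 CPM with dried ginger, 14400 in the single Coptis library and 15000 in all 3 Sayeok-tang libraries. It was 16100 to 16700 with fresh ginger, 16400 to 16900 with Scutellaria and 16400 to 16700 with Bojungikgi-tang. Pinellia had 17200 to 17500 and Zizyphus 17500. Of these 8 markers, 2 rose and 5 fell with Scutellaria at the high dose (20.2% of all tested genes rose and 20.0% fell). With dried ginger 1 rose and 3 fell (20.2% and 19.0%), and with Sayeok-tang none rose and 6 fell (9.39% and 9.53%). With the 3 Coptis doses 1 rose and 2 fell (11.8% and 11.9%). The counts that rose with Scutellaria, dried ginger and Coptis were near the shares of all genes. The part of these markers in the results was not tested. Of replicate pairs, the 1st and 2nd libraries of the medium dose of fresh ginger stood furthest apart, and leaving out either of them changed no call among the 10 genes at that dose. Mitochondrial transcripts took 10.197% to 11.144% of counts at the high dose of Sayeok-tang, 9.893% to 10.769% with Bojungikgi-tang, 9.701% to 10.474% with dried ginger, 9.062% to 10.33% with fresh ginger and 9.096% to 9.55% with Scutellaria, against 8.581% to 9.382% in vehicle. All high-dose libraries of Sayeok-tang, Bojungikgi-tang and dried ginger were above the vehicle range. So were all their medium-dose libraries, at 10.311% to 11.298%, 9.955% to 10.609% and 9.576% to 11.252% in that order. The low-dose libraries of Bojungikgi-tang were also above it (10.161% and 10.469%). The part of this share in the results was not tested.

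At the high dose between 0 and 9 of the 10 genes rose, depending on the extract. Against vehicle, 8 of the 10 genes rose with Scutellaria, where 20.2% of all tested genes rose. With dried ginger 9 rose, also against 20.2% of all genes. With fresh ginger 7 rose (6.21% of all genes), and with Sayeok-tang 6 rose (9.39%). None rose or fell with Bojungikgi-tang by edgeR's quasi-likelihood test, where 3.72% of all genes were called in either direction; 2 (CEBPB and NUPR1) had an unadjusted p under 0.05, and DESeq2 called 0 of the 7 genes to which it gave an adjusted p, NUPR1 not among them. With Pinellia none rose and 2 fell (5.08% of all genes fell). With Coptis, its 3 doses taken as 1 group, 9 rose (11.8% of all genes), and with Zizyphus, handled the same way, none was called by edgeR (0.0884%), 0 had an unadjusted p under 0.05, and DESeq2 called 0 of 10. The median log2 difference over the 10 genes was 1.10 for Scutellaria, 0.92 for Coptis, 0.82 for dried ginger, 0.28 for fresh ginger and 0.18 for Sayeok-tang, and the median over all tested genes was 0.00 or 0.01 in each of these. These comparisons all used the same 3 vehicle libraries.

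**Figure D1:**
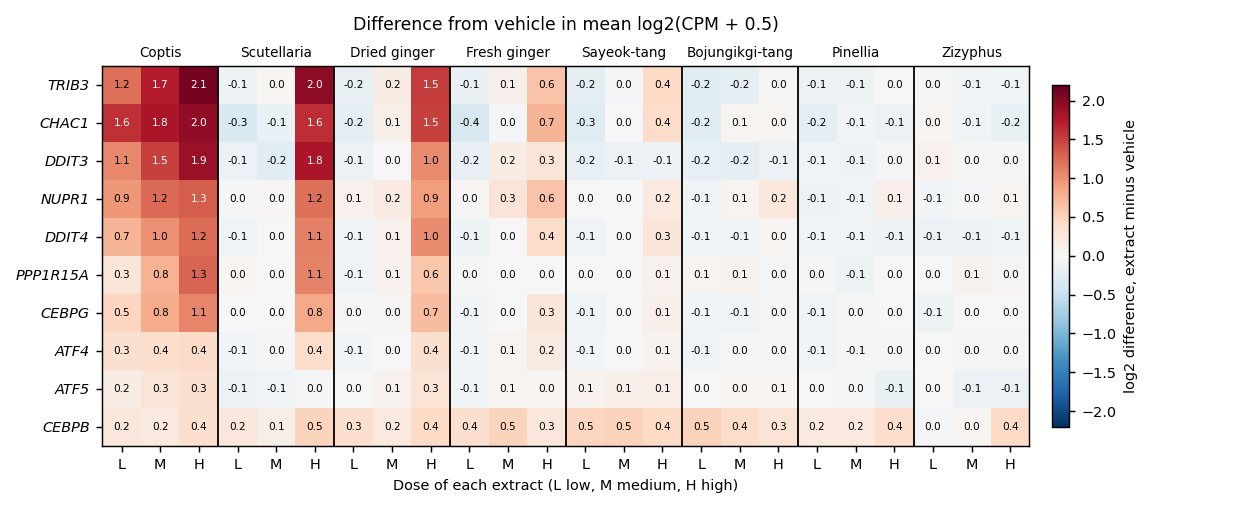
Difference between each extract group and vehicle in mean log2(CPM + 0.5) for the 10 genes (rows), with low, medium and high dose (L, M, H) of the 8 extracts in columns; red is higher and blue is lower than vehicle. TRIB3, CHAC1 and DDIT3 are clearly red at all 3 Coptis doses, and with Scutellaria and dried ginger at the high dose. ATF4 and ATF5 are pale with Coptis, and the CEBPB row is pale red in most columns.

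The comparison of the high with the low dose of 1 extract used vehicle in the filter, scaling and spread but not in the contrast. It gave 8 genes that rose with Scutellaria (15.4% of all genes rose), 9 with dried ginger (16.8%), 7 with fresh ginger (1.72%), 5 with Sayeok-tang (3.82%) and 1, TRIB3, with Bojungikgi-tang (0.257%). With Pinellia none of the 10 was called by edgeR in this comparison, and 0.0663% of all genes were; 4 (TRIB3, CEBPG, ATF5 and NUPR1) had an unadjusted p under 0.05. DESeq2 gave an adjusted p to 4 of the 10 and called 0 of those; ATF5 and NUPR1 had none. TRIB3 and CHAC1 had the 2 largest log2 changes of the 10 in Scutellaria, dried ginger, fresh ginger and Sayeok-tang.

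**Figure D2:**
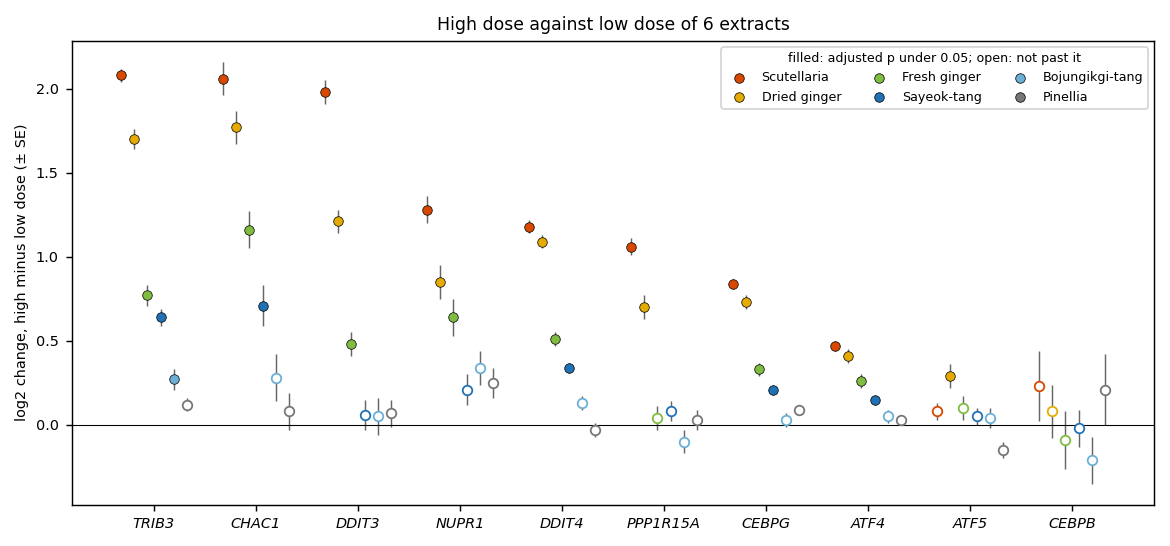
Log2 change between the high and the low dose (y axis, ± standard error) of each of the 10 genes (x axis) for 6 extracts with replicates; filled points passed an adjusted p of 0.05 and open points did not. From left to right within a gene, Scutellaria and dried ginger are highest for 8 genes, and for ATF5 only dried ginger is filled.

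ATF4 (ENSG00000128272, chr22:39519695-39522685, plus strand) is controlled mainly through translation, and its mRNA changed least among the genes called with Scutellaria. It had 344, 355 and 334 CPM at the high dose of Scutellaria, against 255, 268 and 256 CPM in vehicle. It had 338, 324 and 335 CPM at the high dose of dried ginger and 302, 295 and 297 CPM at that of fresh ginger, so all 9 libraries lay above the vehicle libraries. The log2 change against vehicle was 0.41 ± 0.03 with Scutellaria (SE, adjusted p = 1.58e-13), 0.35 ± 0.04 with dried ginger (1.57e-07) and 0.20 ± 0.04 with fresh ginger (0.00274). Sayeok-tang libraries at the high dose held 273, 275 and 278 CPM, above vehicle without overlap but not called (log2 0.08), and against the low dose of the same extract ATF4 rose by a log2 of 0.15 ± 0.03 (adjusted p = 0.0028). The libraries were made from bulk RNA, so more RNA per cell and more cells with the transcript cannot be told apart here or below.

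CEBPG (ENSG00000153879, chr19:33373330-33382686, plus strand) encodes a C/EBP factor that lacks an activation domain and dimerises with ATF4. It had 224 CPM in each of the 3 Scutellaria high-dose libraries, against 126, 127 and 125 CPM in vehicle. Dried ginger gave 204, 198 and 205 CPM, fresh ginger 157, 150 and 148 CPM and Sayeok-tang 137, 134 and 139 CPM at the high dose. The replicates were tight, and each of these 4 groups lay above vehicle without overlap. The log2 changes against vehicle were 0.83 ± 0.03, 0.68 ± 0.04, 0.27 ± 0.04 and 0.12 ± 0.03 in that order of extracts, all called, the last with an adjusted p of 0.0101 that became 0.0621 without the 3rd Sayeok-tang high-dose library.

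DDIT3 (ENSG00000175197, chr12:57516588-57521737, minus strand) encodes CHOP, a C/EBP-family factor that is induced by ATF4 and linked to cell death after prolonged stress. It had 35.3, 37.6 and 33.2 CPM at the high dose of Scutellaria and 20.3, 20.9 and 21.6 CPM at that of dried ginger, against 9.86, 9.90 and 9.85 CPM in vehicle. Fresh ginger reached 12.1, 12.4 and 11.8 CPM. The changes were 3.58-fold with Scutellaria (log2 1.84 ± 0.07, adjusted p = 2.71e-23), 2.12-fold with dried ginger (log2 1.09 ± 0.07, 1.78e-13) and 1.23-fold with fresh ginger (log2 0.29 ± 0.07, 0.00692). At the high dose of Sayeok-tang DDIT3 stood at 8.43, 9.04 and 9.78 CPM, all below the vehicle libraries, with a log2 difference of -0.13 that was not called (approximate 95% interval -0.30 to 0.05). TRIB3, CHAC1 and CEBPG rose in those same libraries. In GENCODE 29, DDIT3 overlaps MARS1 and MBD6 on the opposite strand, and the sources used here do not say whether counting used strand. MARS1, the cytosolic methionine tRNA synthetase, had 412 ± 2.01 CPM with Scutellaria and 395 ± 3.16 CPM with dried ginger, against 285 ± 6.46 CPM in vehicle (SD, n = 3 each), a log2 rise of 0.53 and 0.47. The share of DDIT3 counts that came from overlapping transcripts was not tested.

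ATF5 (ENSG00000169136, chr19:49928702-49933935, plus strand) is related to ATF4, is also translated through upstream open reading frames, and is known from the mitochondrial stress response. It was 1 of the 2 genes not called at the high dose of Scutellaria. It had 41.3, 41.6 and 41 CPM at the high dose of Scutellaria, against 43.8, 41.7 and 42.8 CPM in vehicle, a log2 difference of -0.05 that was not called (approximate 95% interval -0.14 to 0.04). At the high dose of dried ginger it had 55.7, 54.0 and 48.6 CPM, above every vehicle library, and rose by a log2 of 0.30 ± 0.07 (adjusted p = 9.04e-04). Sayeok-tang gave 48.0, 46.9 and 45.9 CPM and a log2 rise of 0.13 ± 0.04 (adjusted p = 0.0308). That call ended with DESeq2 (adjusted p = 0.0742), in 1 fit of all libraries (0.091) and without single libraries (up to 0.121). With Pinellia ATF5 fell to 38.0, 37.4 and 40.7 CPM (log2 -0.15, adjusted p = 0.0464), a call that DESeq2 (0.0617), the fit of all libraries (0.118) and leaving out any of 5 single libraries ended. NUP62, which overlaps ATF5 on the opposite strand, had 147 ± 2.97 CPM with Scutellaria and 161 ± 6.55 CPM with dried ginger, against 168 ± 8.0 CPM in vehicle (SD, n = 3 each).

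CEBPB (ENSG00000172216, chr20:50190734-50192689, plus strand) encodes C/EBPβ, a partner of ATF4 and a factor in inflammation and differentiation. Its libraries scattered widely. Vehicle libraries held 47.3, 59.3 and 63.5 CPM, and the 3 libraries at the high dose of Pinellia held 68.1, 99.3 and 59.5 CPM. The log2 difference from vehicle was above 0 in all 18 comparisons of a single dose of a replicated extract, between 0.13 and 0.51, and 4 of these were called: the high, medium and low dose of Sayeok-tang and the low dose of Bojungikgi-tang. It did not follow dose: the high-minus-low log2 change ran from -0.21 to 0.23 over 6 extracts and was called in none of them by edgeR. Sayeok-tang had 70.6, 81.3 and 79.0 CPM at the high dose and 71.9, 80.2 and 82.1 CPM at the low dose. Against the vehicle libraries the low dose was higher by a log2 of 0.46 ± 0.12 (adjusted p = 0.0326) and the high dose by 0.44 ± 0.12 (0.0214). Without the 1st vehicle library, the lowest of the 3, these became 0.35 (0.0688) and 0.32 (0.0609). With Bojungikgi-tang the call also ended without that library (log2 0.39, adjusted p = 0.0676). All 4 calls ended in the fit of all libraries (adjusted p = 0.0594 to 0.127) and without some single libraries of the extract (up to 0.208); the low-dose calls also ended without the 2nd vehicle library (0.0618 with Sayeok-tang and 0.0639 with Bojungikgi-tang). The fit of all libraries instead called CEBPB at the high dose of Scutellaria (log2 0.49, adjusted p = 0.0201) and of dried ginger (0.42, 0.0434), and DESeq2 (0.0319) and the replicate block (0.0369) also called it with dried ginger. Vehicle and extracts belong to sets that the labels number differently, so a difference between sets and a treatment difference cannot be told apart.

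**Figure D3:**
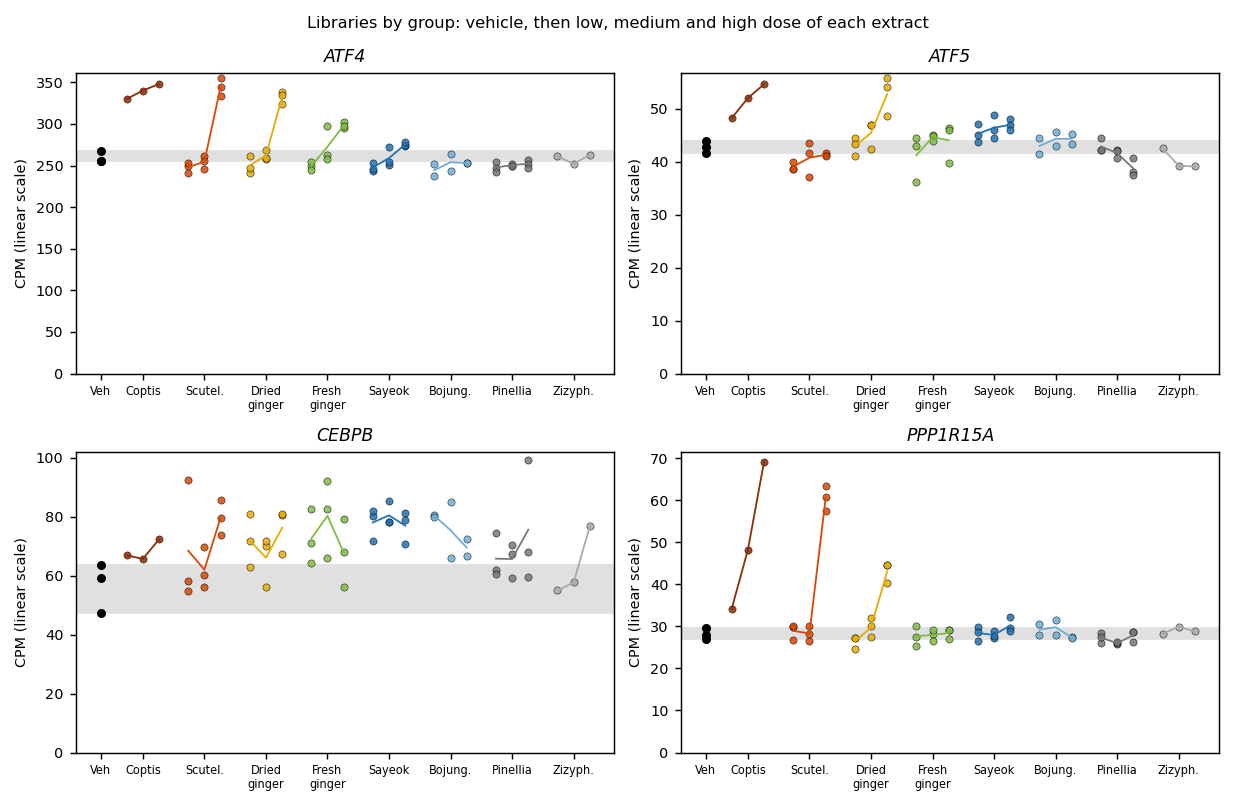
CPM of ATF4, ATF5, CEBPB and PPP1R15A in each library (points), with vehicle at the left and then low, medium and high dose of each extract; lines join group means and the grey band is the range of the 3 vehicle libraries. ATF4 and PPP1R15A leave the band at the high dose of Scutellaria and dried ginger, ATF5 leaves it upward with dried ginger and Coptis, and CEBPB libraries scatter above it in most groups.

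TRIB3 (ENSG00000101255, chr20:362835-397559, plus strand) encodes a pseudokinase that binds ATF4 and CHOP and dampens their activity. It was the most responsive gene of the set at the high dose of Scutellaria, with 275, 275 and 265 CPM, against 64.6, 68.3 and 75.6 CPM in vehicle. Dried ginger gave 201, 202 and 205 CPM, fresh ginger 106, 109 and 108 CPM and Sayeok-tang 93.3, 98.1 and 89.8 CPM at the high dose. All 12 libraries exceeded the highest vehicle library. TRIB3 was 3.92-fold higher with Scutellaria (log2 1.97 ± 0.04, adjusted p = 6.16e-32), 2.92-fold with dried ginger (1.54 ± 0.05, 1.82e-18), 1.55-fold with fresh ginger (0.64 ± 0.06, 5.58e-09) and 1.35-fold with Sayeok-tang (0.43 ± 0.04, 6.75e-09). Bojungikgi-tang gave 71.6 and 68.9 CPM at the high dose, inside the vehicle range. Against its own low dose (59.1 and 57.4 CPM) this was a log2 rise of 0.27 ± 0.06 (adjusted p = 0.0125), which ended without any 1 of the 4 libraries (0.0672 to 0.256).

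PPP1R15A (ENSG00000087074, chr19:48872392-48876057, plus strand) encodes GADD34, the subunit that directs protein phosphatase 1 to eIF2 and so ends the response. It had 60.7, 63.4 and 57.4 CPM at the high dose of Scutellaria and 44.5, 44.5 and 40.2 CPM at that of dried ginger, against 29.7, 27.0 and 27.9 CPM in vehicle. These were rises of 2.14-fold (log2 1.10 ± 0.05, adjusted p = 5.53e-20) and 1.52-fold (log2 0.60 ± 0.06, 1.29e-08). Fresh ginger at its high dose had 29.1, 29.2 and 27.0 CPM, within 1 SD of the vehicle mean. Sayeok-tang had 29.7, 32.2 and 28.8 CPM, and neither extract was called (log2 0.01 and 0.09). TRIB3 rose with all 4 extracts.

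CHAC1 (ENSG00000128965, chr15:40952962-40956519, plus strand) encodes an enzyme that degrades glutathione. It had 20.0, 21 and 21.1 CPM at the high dose of Scutellaria, 19.1, 19.8 and 18.2 CPM at that of dried ginger and 12.0, 10.6 and 10.6 CPM at that of fresh ginger, against 5.71, 6.25 and 7.37 CPM in vehicle. Sayeok-tang libraries held 8.96, 9.30 and 7.64 CPM, the lowest of them just above the vehicle range. The rises were 3.22-fold (log2 1.69 ± 0.09), 2.96-fold (1.56 ± 0.10), 1.72-fold (0.79 ± 0.10) and 1.34-fold (0.42 ± 0.11), with adjusted p of 2.02e-18, 1.30e-13, 3.69e-06 and 0.00447 in that order of extracts.

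DDIT4 (ENSG00000168209, chr10:72273920-72276036, plus strand) encodes REDD1, an inhibitor of mTORC1 signalling. It had 377, 381 and 380 CPM with Scutellaria and 352, 364 and 364 CPM with dried ginger at the high dose, against 171, 176 and 180 CPM in vehicle. Fresh ginger gave 225, 232 and 243 CPM and Sayeok-tang 209, 213 and 210 CPM, and no library of the 4 extracts overlapped vehicle. DDIT4 rose 2.16-fold, 2.05-fold, 1.33-fold and 1.20-fold, again in that order (log2 1.11 ± 0.03, 1.03 ± 0.04, 0.41 ± 0.04 and 0.26 ± 0.03). With Pinellia it had 157, 156 and 173 CPM a log2 difference of -0.12 ± 0.04 (adjusted p = 0.0268), with 1 library inside the vehicle range. Leaving out single libraries ended that call (adjusted p up to 0.183).

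NUPR1 (ENSG00000176046, chr16:28532708-28539174, minus strand) encodes a small stress-induced nuclear protein. It had 23.4, 22.9 and 22.7 CPM with Scutellaria, 21.7, 18.5 and 16.3 CPM with dried ginger and 14.4, 17.3 and 14.3 CPM with fresh ginger at the high dose, against 9.34, 9.67 and 10.1 CPM in vehicle. The dried ginger libraries were the least alike. NUPR1 rose 2.37-fold (log2 1.25 ± 0.08), 1.93-fold (0.95 ± 0.10) and 1.59-fold (0.67 ± 0.11), while Sayeok-tang, at 10.7, 11.7 and 11.6 CPM, was not called (log2 0.22).

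**Figure D4:**
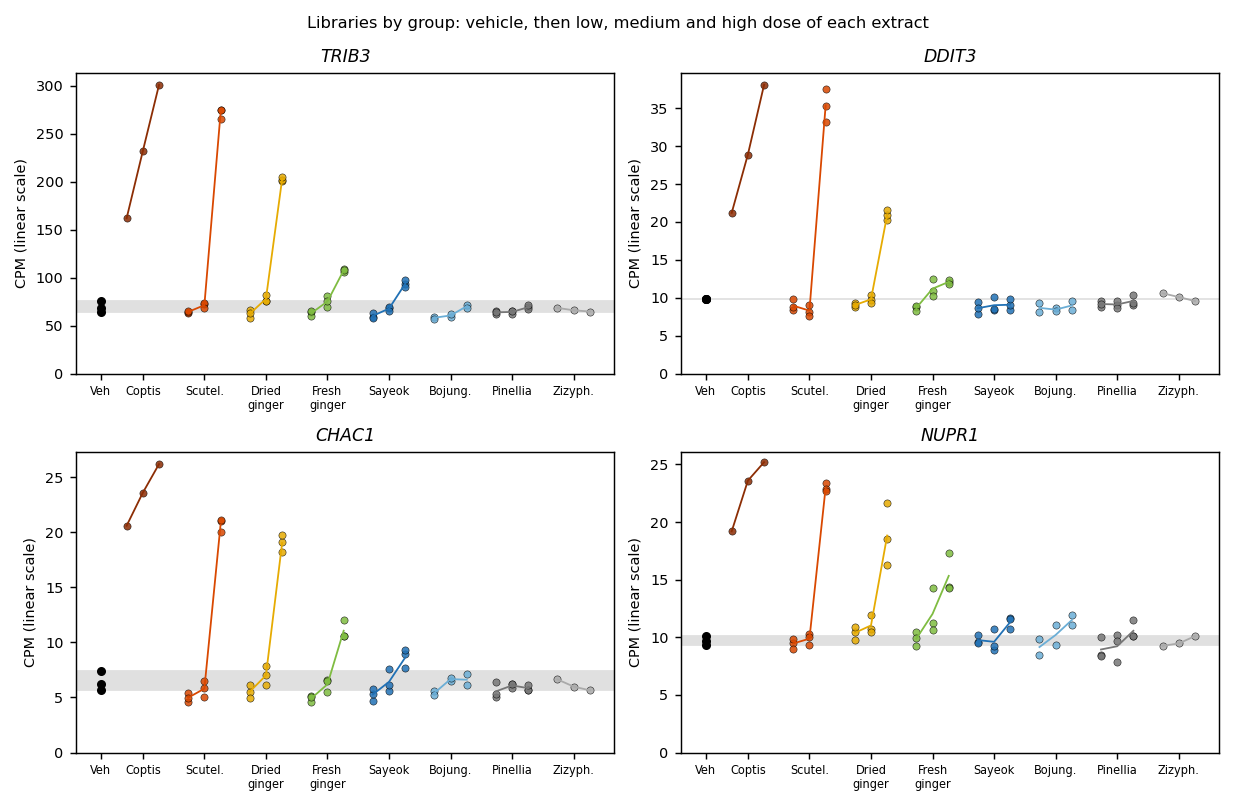
CPM of TRIB3, DDIT3, CHAC1 and NUPR1 in each library (points), with vehicle at the left and then low, medium and high dose of each extract; lines join group means and the grey band is the range of the 3 vehicle libraries. With Scutellaria and dried ginger the step lies between the medium and high dose, whereas the single Coptis libraries are above the band from the low dose on.

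At the medium and low doses few of these genes moved. Of the 10, the medium dose gave calls for CEBPB with Sayeok-tang (higher, against 4.78% of all genes), TRIB3 with Bojungikgi-tang (lower, 1.26%; the call ended in the fit of all libraries, 0.0595, and without either Bojungikgi-tang library, up to 0.466, or the 2nd or 3rd vehicle library, up to 0.138) and DDIT3 with Scutellaria (lower, 5.52%). No member was called by edgeR at the medium dose of fresh ginger (0.77% of all genes called in either direction), dried ginger (6.14%) or Pinellia (7.19%). An unadjusted p under 0.05 was reached by 3, 2 and 3 genes in that order, and DESeq2 called 0 of the 9, 10 and 7 genes to which it gave an adjusted p. DDIT3 at the medium dose of Scutellaria had 9.06, 8.19 and 7.66 CPM, a log2 of -0.25 with an adjusted p of 0.0495 that DESeq2 (0.0867), no filter (0.0544) and the fit of all libraries (0.0528) raised above 0.05. At 38 µg/mL of Scutellaria TRIB3 was at 72.2, 73.8 and 68.0 CPM, inside the vehicle range, and at 190 µg/mL it was at 275, 275 and 265 CPM.

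At the low dose TRIB3 was lower with Sayeok-tang (4.75% of all genes fell) and with Bojungikgi-tang (4.19%), with log2 differences of -0.20 ± 0.05 (adjusted p = 0.00455) and -0.25 ± 0.05 (0.00293). The second of these ended without the 3rd Bojungikgi-tang low-dose library (0.0926). CEBPB was higher with both (3.57% and 2.76% of all genes rose). CHAC1 was lower with fresh ginger (log2 -0.38 ± 0.11, 3.63% of all genes fell) and with Scutellaria (-0.37 ± 0.11, 5.04%), with adjusted p of 0.0414 and 0.0278 that rose to as much as 0.244 without single libraries. None was called by edgeR with dried ginger (3.6% in either direction) or Pinellia (5.51%), where 1 and 4 genes had an unadjusted p under 0.05 and DESeq2 called 0 of the 9 and 7 genes with an adjusted p. Over the 6 replicated extracts, the low-dose difference from vehicle was below 0 in every extract for ATF4 (-0.09 to -0.06), DDIT3 (-0.19 to -0.11), TRIB3 (-0.25 to -0.11), CHAC1 (-0.38 to -0.21), CEBPG (-0.10 to -0.01) and DDIT4 (-0.10 to -0.06), and most of these differences were not called. They share 1 set of vehicle libraries, and a shift of that set and an effect of the low doses cannot be told apart.

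With Coptis the genes were above vehicle at the lowest dose. Its single libraries at 4.4, 22 and 110 µg/mL had 162, 232 and 301 CPM of TRIB3, where vehicle averaged 69.5 ± 5.59 CPM (SD, n = 3). DDIT3 had 21.2, 28.9 and 38.1 CPM at those doses and CHAC1 20.6, 23.6 and 26.2 CPM, where vehicle averaged 9.87 and 6.44 CPM. Each value increased with dose and exceeded every vehicle library. At the low dose 3 of the 10 genes (TRIB3, DDIT3 and CHAC1) were at least 2-fold above the vehicle mean, where 0.297% of all tested genes were that far above it and outside the vehicle range. At the medium dose 5 were (0.499%), adding DDIT4 and NUPR1. At the high dose 7 were (1.3%), adding CEBPG and PPP1R15A. All 10 genes lay above the vehicle range at each of the 3 doses. With Zizyphus 6, 5 and 4 of the 10 lay outside that range, in either direction, at the high, medium and low dose. The share of all genes outside the range, whatever the size of the difference, was not counted, so nothing is read from being outside it alone. These counts come from 1 library per dose and have no replicate check.

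The ratio of high to low dose varied between the genes within Coptis. The high-dose level was 2.02 times the low-dose level for PPP1R15A (69.2 and 34.2 CPM), 1.85 times for TRIB3 and 1.80 times for DDIT3. It was 1.27 times for CHAC1 and 1.05 times for ATF4, which had 330, 340 and 348 CPM from low to high dose. With the 3 doses taken as 1 group, TRIB3 was 3.33-fold above vehicle (log2 1.73 ± 0.21, adjusted p = 0.00292), CHAC1 3.64-fold (1.87 ± 0.11, 3.68e-07), DDIT3 2.98-fold (1.57 ± 0.18, 8.64e-04) and NUPR1 2.33-fold (1.22 ± 0.09, 2.86e-06). The spread in that fit includes the differences between doses. ATF5, at 48.2, 52.0 and 54.6 CPM from low to high dose, rose by a log2 of 0.27 ± 0.06 (adjusted p = 0.00501). PPP1R15A passed with an adjusted p of 0.0429, which became 0.0998 with no filter, 0.0866 without the medium dose and 0.0971 to 0.119 without a vehicle library. Mitochondrial transcripts took 14.984%, 15.923% and 9.923% of counts in the Coptis libraries from low to high dose, against 8.581% to 9.382% in vehicle, and their part in these results was not tested.

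With Zizyphus the 3 libraries stayed near vehicle. TRIB3 was at 68.5, 66.0 and 64.7 CPM and DDIT3 at 10.6, 10.1 and 9.57 CPM from low to high dose, and no gene of the 10 was past 2-fold at the low, medium or high dose, where 0.259%, 0.246% and 0.259% of all genes were past it in either direction and outside the vehicle range. The 3 doses together gave log2 differences from vehicle of -0.07 for TRIB3 (approximate 95% interval -0.49 to 0.36) and 0.03 for DDIT3 (-0.37 to 0.42). The fit took the spread from the Coptis, Zizyphus and vehicle libraries together, so these intervals also hold differences between the Coptis doses. The interval of DDIT3 includes the change seen at the high dose of fresh ginger (0.29), and that of TRIB3 ends below the TRIB3 change there (0.64). Set directly against Zizyphus, whose doses in µg/mL were higher, Coptis had 8 of the 10 genes higher (8.13% of all genes), with TRIB3 at a log2 of 1.80 ± 0.22 (adjusted p = 0.00494). CEBPB (0.11) and PPP1R15A (0.80 ± 0.24, adjusted p = 0.0671) were not called, and DESeq2 (0.00834) and the fit of all libraries (1.91e-15) did call PPP1R15A.

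Dried and fresh ginger are preparations of the rhizome of the same plant and were given at equal doses. At 500 µg/mL 9 of the 10 genes were higher with dried than with fresh ginger, as were 11.3% of all genes. TRIB3 was 1.88-fold higher (log2 0.91 ± 0.05, adjusted p = 3.90e-13), DDIT3 1.73-fold (0.79 ± 0.07, 4.12e-10), CHAC1 1.71-fold (0.78 ± 0.09, 1.63e-07), DDIT4 1.54-fold (0.63 ± 0.04, 2.57e-12) and PPP1R15A 1.51-fold (0.59 ± 0.07, 6.51e-08). CEBPG was 1.33-fold higher, ATF5 1.19-fold and ATF4 1.12-fold (adjusted p = 0.00876). ATF5 lost its call without the 3rd fresh ginger library (0.0606). NUPR1 was 1.21-fold higher with overlapping libraries (adjusted p = 0.0424), and DESeq2 (0.0544) and the loss of any of 4 single libraries (up to 0.265) ended that call. CEBPB was not called (log2 0.15, approximate 95% interval -0.17 to 0.47).

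At 100 µg/mL none of the 10 was called between dried and fresh ginger by edgeR, where 0.481% of all genes were; 2 (DDIT4 and DDIT3) had an unadjusted p under 0.05, and DESeq2 called 0 of 10. TRIB3 had 75.9, 75.7 and 82.1 CPM with dried ginger and 69.1, 80.9 and 75.7 CPM with fresh ginger, which overlap (log2 0.05, approximate 95% interval -0.06 to 0.16). The change between high and low dose, tested as a difference of differences, was larger with dried than with fresh ginger for 6 genes, where 5.56% of all genes had the same sign and were called. These were TRIB3 (0.93 ± 0.08 in log2), DDIT3 (0.73 ± 0.10), PPP1R15A (0.66 ± 0.09), CHAC1 (0.61 ± 0.15), DDIT4 (0.58 ± 0.06) and CEBPG (0.39 ± 0.05). For ATF4 the difference was 0.15 ± 0.06 (adjusted p = 0.115), and the fit of all libraries called it (0.0374).

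The 2 water-extracted formulas also differed at equal dose. At 500 µg/mL TRIB3 had 93.3, 98.1 and 89.8 CPM with Sayeok-tang, against 71.6 and 68.9 CPM with Bojungikgi-tang, a log2 difference of 0.41 ± 0.05 (adjusted p = 1.35e-06). DDIT4 had 209, 213 and 210 CPM with Sayeok-tang, against 186 and 175 CPM with Bojungikgi-tang (log2 0.22 ± 0.04, adjusted p = 2.95e-04). CEBPG was higher by 0.14 ± 0.04 (adjusted p = 0.0329; 0.0508 with DESeq2, and up to 0.236 without single libraries). These were the 3 genes called of the 10, where 1.09% of all genes were higher. CHAC1 had a log2 difference of 0.39 ± 0.12 that was not called (adjusted p = 0.0985; 0.0415 with the replicate number as a block and 0.0331 with no filter). NUPR1 was at 10.7, 11.7 and 11.6 CPM with Sayeok-tang and 11.9 and 11.1 CPM with Bojungikgi-tang, which overlap. Of the high-minus-low changes, that of TRIB3 was larger with Sayeok-tang by 0.37 ± 0.07 (adjusted p = 0.0119, 0.161% of all genes higher); leaving out 5 of the 10 libraries 1 at a time ended the call (up to 0.166).

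Other genes of the pathway were read through 4 lists. Beside them stand the shares of all tested genes: those that rose are given above for most extracts, and 20.0% fell with Scutellaria, 19.0% with dried ginger, 7.16% with fresh ginger, 9.53% with Sayeok-tang and 11.9% with Coptis. With Bojungikgi-tang 1.39% rose and 2.33% fell, and with Pinellia 3.85% rose. Of 30 ATF4 effector targets, which include genes of amino acid synthesis, transport and tRNA charging as well as transcription factors such as ATF3 and JDP2 and secreted or stress proteins such as GDF15, STC2 and NIBAN1, 29 were tested. At the high dose 26 rose and none fell with Scutellaria, as with dried ginger; 20 rose and 1 fell with fresh ginger, 17 rose and 1 fell with Sayeok-tang, 3 rose and 1 fell with Bojungikgi-tang, and 1 rose and 7 fell with Pinellia. With the 3 Coptis doses 25 rose and none fell, and with Zizyphus none was called. The list's median log2 difference from vehicle was 0.68 with Scutellaria and with Coptis, 0.56 with dried ginger and 0.26 with fresh ginger, while the median of all genes was 0.01. NIBAN1, a stress-induced protein, had 79.7 CPM with dried ginger and 58.0 CPM with Scutellaria, against 10.6 CPM in vehicle (log2 2.90 ± 0.07 and 2.44 ± 0.06). STC2, a secreted glycoprotein, had 121 and 123 CPM with these extracts, against 28.7 CPM in vehicle (log2 2.07 ± 0.06 and 2.10 ± 0.04). ASNS, asparagine synthetase, had 275 CPM with Scutellaria, against 127 CPM in vehicle (log2 1.12 ± 0.03). With Sayeok-tang, ALDH1L2, a mitochondrial folate enzyme, rose by a log2 of 0.76 ± 0.06, and SLC3A2, an amino acid transporter subunit, fell by 0.09 on the log2 scale.

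ER chaperones and other genes of the ATF6 and XBP1 branches moved less uniformly. Of 18, 13 rose and 2 fell with Scutellaria, 10 rose and 3 fell with dried ginger, 10 rose and 2 fell with fresh ginger and 7 rose with Sayeok-tang. The counts that fell with dried and fresh ginger were near the shares of all genes (19.0% and 7.16%). The count that fell with Scutellaria was not above the share there (20.0%). With the 3 Coptis doses 5 rose and 8 fell, and the list's median was -0.18, against 0.33 with Scutellaria. ERN1, which encodes the sensor IRE1, rose by a log2 of 1.23 ± 0.07 with Scutellaria, 1.09 ± 0.06 with dried ginger and 1.01 ± 0.17 with Coptis. HERPUD1, a factor in degradation of ER proteins, rose by 0.75 ± 0.05 with Scutellaria and 0.40 ± 0.06 with Coptis. CALR, calreticulin, fell by 0.27 with Scutellaria, 0.47 with dried ginger and 0.66 with Coptis on the log2 scale. HSP90B1, the ER chaperone GRP94, rose by 0.17 ± 0.03 with Scutellaria and by 0.18 ± 0.03 with Sayeok-tang, and fell by 0.32 with Coptis. MANF, a secreted ER stress protein chosen after its values were seen, rose by 0.16 ± 0.05 with Scutellaria and fell by 0.43 with Coptis. The difference between Scutellaria and Coptis was not tested.

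**Figure D5:**
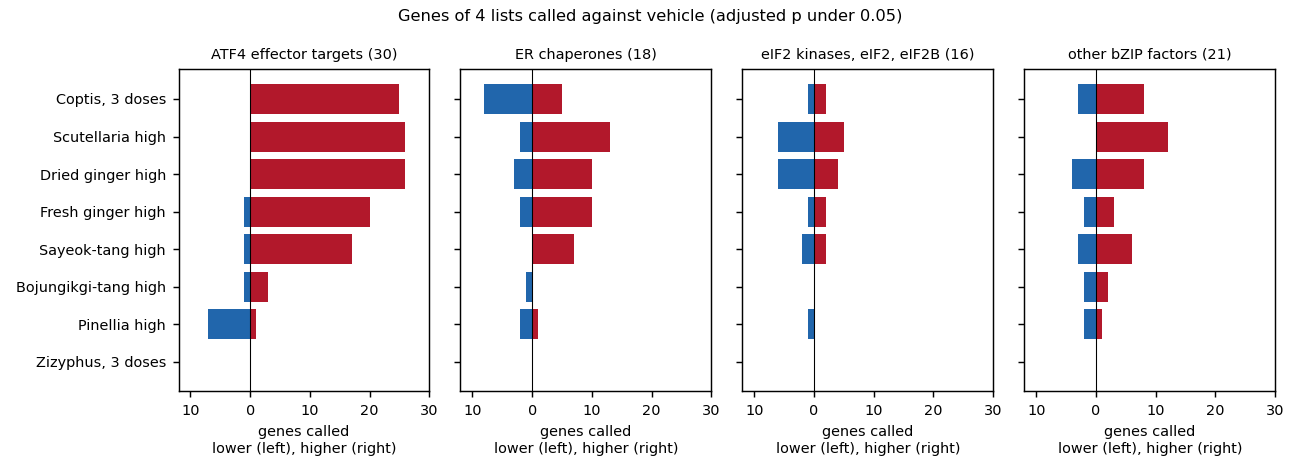
Number of genes called higher (red, right of 0) and lower (blue, left of 0) than vehicle in 4 lists, by extract (rows); Coptis and Zizyphus rows use the 3 doses as 1 group. The ATF4 effector bars shorten from dried ginger to Bojungikgi-tang, and in the ER chaperone panel Coptis has 5 genes higher and 8 lower, where Scutellaria has 13 higher and 2 lower.

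Of 16 genes for eIF2 kinases, eIF2, its exchange factor eIF2B and a few regulators such as DELE1 and PPP1R15B, 5 rose and 6 fell with Scutellaria (20.2% of all genes rose and 20.0% fell), 4 rose and 6 fell with dried ginger (20.2% and 19.0%), and 2 rose and 1 fell with Coptis (11.8% and 11.9%). The counts that rose with dried ginger and Coptis were near the shares of all genes. EIF2AK3, the kinase PERK, rose by a log2 of 0.45 ± 0.06 with Scutellaria and 0.23 ± 0.07 with dried ginger. DELE1, which relays mitochondrial stress to an eIF2 kinase, rose by 0.26 ± 0.04 with Scutellaria, 0.29 ± 0.05 with dried ginger, 0.29 ± 0.05 with Coptis and 0.14 ± 0.04 with Sayeok-tang. EIF2B5, the catalytic subunit of eIF2B, fell by 0.32, 0.35, 0.36 and 0.28 in that order of extracts. Of 21 other C/EBP, ATF, AP-1 and related factors, 12 rose and none fell with Scutellaria, 8 rose and 4 fell with dried ginger, 8 rose and 3 fell with Coptis and 6 rose and 3 fell with Sayeok-tang (9.39% of all genes rose and 9.53% fell). The counts that fell with dried ginger and Coptis were near the shares of all genes. This list shares ATF3 with the effector targets, and ATF6 and XBP1 with the ER list. ATF3, a stress-induced ATF factor, had 19.9 CPM with Scutellaria, against 8.39 CPM in vehicle (log2 1.25 ± 0.08). FOSL1, an AP-1 subunit, had 63.6 CPM with dried ginger and 47.1 CPM with Sayeok-tang, against 29.2 CPM in vehicle. MAFK, a small MAF factor, fell to 145 CPM with dried ginger and 129 CPM with Sayeok-tang, against 195 CPM in vehicle.

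Per kilobase of exon, the vehicle levels ran from ATF4 (103 CPM per kb) and DDIT4 (85.4) through CEBPB (29), CEBPG (28.5), TRIB3 (20.2), ATF5 (14.5), PPP1R15A (9.13), DDIT3 (7.55) and CHAC1 (3.13) to NUPR1 (1.71). CEBPB and CEBPG did not differ beyond the spread of CEBPB. The length used was that of all annotated exons of a gene joined, 5674 bases for NUPR1 and 2058 for CHAC1. In CPM, NUPR1 (9.70) stood above CHAC1 (6.44) and near DDIT3 (9.87), so its last place depends on that length. Over the 25 group means of log2(CPM + 0.5), the 8 genes other than ATF5 and CEBPB had pairwise Pearson r of 0.87 to 0.99. ATF5 had r of 0.59 to 0.73 with those 8, and CEBPB had r of 0.09 to 0.20 with the other 9. The points share 1 scaling of all libraries, and r is given as a description.

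Among the 10963 other genes whose mean reached 5 CPM, those closest in pattern to 6 of the genes were ranked by r over the 25 group means. The 10 genes themselves were left out of the ranking, and some were as close, such as CEBPG and DDIT4 to TRIB3 (0.99 each). For TRIB3 they were AARS1, CLIC4 and STC2 (r = 0.99 each), for CHAC1 CARS1, PSAT1 and PCK2 (0.99 each), for ATF4 PCK2, ASNS and PSAT1 (0.99 each), and for NUPR1 CARS1, ASNS and CBS (0.98 each). For DDIT4 they were STC2 (1.00 after rounding), MTHFD2 and CLIC4 (0.99 each). For DDIT3 they were VEGFA, which encodes an angiogenic growth factor, SARS1 and TES (0.98 each).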

How the data were processed

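RNA-seq of 60 A549 libraries was analysed. The deposited values are expected counts from RSEM, 1 per Ensembl gene; per the submitters' processing notes the authors used FastQC 0.11.9, Trim Galore 0.6.5, STAR 2.7.3a and RSEM 1.3.3 on hg38, with an annotation release that is not given in the sources used here. Of its non-zero values 24.4% were not whole, and all were rounded. Another 209 columns were not used. Totals were 17.51 to 38.54 M counts, and whether this depth limits precision for genes near 10 CPM was not tested.

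The 4 fits, each of a set of extracts with the 3 vehicle libraries, used filterByExpr (minimum count 10), TMM and robust quasi-likelihood F-tests in edgeR 4.0.16 (R 4.3.3), with Benjamini-Hochberg adjustment over all tested genes and calls under 0.05. The SE is the log2 change over the square root of F, and the approximate 95% interval follows from it. Coptis and Zizyphus had 1 library per dose, so their doses were pooled for testing; single doses were described by log2((CPM + 0.5)/(vehicle mean + 0.5)), at least 1 in size and outside the vehicle range. Symbols were found for 56558 IDs, and positions are GENCODE 29. On simulated counts the ginger fit was tested for recovery of known changes.

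The genes, lists and tests were chosen with earlier results of these data known. List genes named were up to 3 per direction with the lowest p in 3 high-dose comparisons. No label says that replicates came from separate cultures; the spread behind each p may be technical. Replicate numbers paired samples in the data in 2 comparisons, the high against the low dose of fresh ginger and the high doses of dried against fresh ginger, where every same-number correlation was over 0.1 (0.12 to 0.33 and 0.16 to 0.36). Alternatives were DESeq2 1.42.0, relative log expression scaling, no filter, 1 fit of all libraries, a replicate block and leaving out each library.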

Additional observations from a re-analysis of the deposited data

Results flagged for a closer look

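For 7 results the high-minus-low dose change of a gene differed between 2 extracts given at equal doses, by a test of that difference. Between dried and fresh ginger these were TRIB3 (log2 difference 0.93), DDIT3 (0.73), PPP1R15A (0.66), CHAC1 (0.61), DDIT4 (0.58) and CEBPG (0.39), all larger with dried ginger. Between Sayeok-tang and Bojungikgi-tang it was TRIB3 (0.37), larger with Sayeok-tang. PPP1R15A was the gene among them whose own change with fresh ginger was not called (0.04 between its high and low dose).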

How the results depend on the processing

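No called result changed direction under any alternative (uncalled values near 0 did change sign), and relative log expression scaling changed no call. The replicate block gained 2 calls and lost none: CHAC1 at the high dose of Sayeok-tang against Bojungikgi-tang (log2 0.45, adjusted p = 0.0415) and CEBPB with dried ginger (0.42, 0.0369). It was not fitted for Coptis and Zizyphus; no paired analysis was possible there because each dose had 1 library. Over the 10 genes and 32 comparisons, DESeq2 gained 4 calls and lost 5, no filter gained 4 and lost 3, and 1 joint fit of all 60 libraries gained 7 and lost 8. The cause of these changes was not tested. DESeq2 gave no adjusted p for 36 of these values, which stayed out; among them was CHAC1 at the low dose of Scutellaria.

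The number of the 10 genes called changed as follows. For the high dose against vehicle, Sayeok-tang went to 5 with DESeq2 and 4 in the joint fit (main 6), dried ginger to 10 with DESeq2, the block and the joint fit (9), and Scutellaria to 9 in the joint fit (8). Coptis went to 8 with no filter (9), and against Zizyphus to 9 with DESeq2 and the joint fit (8). Dried against fresh ginger at the high dose went to 8 with DESeq2 (9), and the difference of their dose changes to 7 in the joint fit (6). Sayeok-tang against Bojungikgi-tang went to 2 with DESeq2 and to 4 with no filter and with the block (3). At the medium dose against vehicle, Sayeok-tang went to 0 in the joint fit, Bojungikgi-tang to 2 with DESeq2 and 0 in the joint fit, dried ginger to 1 with no filter and 1 in the joint fit, and Scutellaria to 0 with DESeq2, 0 with no filter and 0 in the joint fit. At the low dose against vehicle, Sayeok-tang went to 1 in the joint fit, Bojungikgi-tang to 1 with no filter and 1 in the joint fit, fresh ginger to 2 and dried ginger to 1 in the joint fit, and dried ginger to 1 with no filter. Pinellia at the high dose went to 1 with DESeq2 and 1 in the joint fit. The difference of the dose changes of Sayeok-tang and Bojungikgi-tang went to 2 with DESeq2 and 2 with no filter.

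Without 1 library at a time the counts at the medium dose ran from 0 to 1 for Sayeok-tang, Bojungikgi-tang, dried ginger, Scutellaria and Pinellia. At the low dose they ran from 1 to 2 for Sayeok-tang, 0 to 2 for Bojungikgi-tang, 0 to 1 for fresh ginger, 0 to 2 for Scutellaria and 0 to 1 for Pinellia. They ran from 0 to 2 for the high dose of Pinellia, 0 to 1 for the difference of the formulas' dose changes, and were 0 throughout for the high against the low dose of Bojungikgi-tang. At the high dose against vehicle they were 7 throughout for fresh ginger and 8 throughout for Scutellaria, and ran from 9 to 10 for dried ginger and 4 to 5 for Sayeok-tang, and 8 to 9 for Coptis.

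The count of all genes called, used as background, also moved. Zizyphus had 14 in the main analysis, 63 with DESeq2, 251 with no filter and 383 in the joint fit. Fresh ginger at the medium dose had 128, with 273 by DESeq2, 299 with no filter, 232 with the block, 465 in the joint fit and 600 without its 2nd library. Dried against fresh ginger at the medium dose had 80, with 151, 244, 122 and 252 under the same 4 alternatives. The high against the low dose of Pinellia had 11, with 29 by DESeq2, 56 with no filter and 21 in the joint fit. In the joint fit the counts were 367 (main 622), 107 (321) and 759 (1161) for the high, medium and low dose of Bojungikgi-tang, 2053 (1077) for the low dose of fresh ginger and 1010 (610) for its high against low dose, 1800 (1021) and 1402 (599) for the medium and low dose of dried ginger, and 4529 (2461) for Coptis against Zizyphus. With no filter they were 544 (321) for the medium dose of Bojungikgi-tang, 197 (119) for its high against low dose, 92 (46) for the difference of the formulas' dose changes and 976 (599) for the low dose of dried ginger. Without 1 library at a time these counts moved by over 1.5 times in 24 of 32 comparisons. The lowest counts against vehicle at the high, medium and low dose were 203, 15 and 205 for Bojungikgi-tang, 671, 429 and 262 (main 1481, 1192, 914) for Pinellia and 1319, 52 and 368 (2224, 128, 1077) for fresh ginger. At the medium and low dose they were 836 and 766 (1802, 1392) for Sayeok-tang, 417 and 137 for dried ginger and 750 and 669 (1478, 1477) for Scutellaria. Coptis had as few as 2216 (3744), Zizyphus 0 and Coptis against Zizyphus 975. The high against the low dose had as few as 24 for Bojungikgi-tang, 382 for fresh ginger and 2 for Pinellia. Dried against fresh ginger at the medium dose had 33, Sayeok-tang against Bojungikgi-tang 183 (343), and the difference of their dose changes 18.

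NUPR1, CHAC1 and DDIT3 had the fewest counts of the 10, under 11 CPM in vehicle; whether depth limits their calls was not tested.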
